A study of Mus musculus with 6 samples.

Results

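S100a5 was followed as a single gene, 1 of 18560 genes in a table of single-cell transcript counts from the mouse olfactory bulb. It was chosen by its level in the cluster of olfactory sensory neurons named n01-OSNs, by its counts in every other cluster and by its change with odor deprivation and training, so these values are a description of a gene selected on them. The 6 libraries came from C57BL/6NJ mice aged 14 weeks, with 2 libraries in each of 3 groups. Control mice are labelled as having no manipulation, naris occluded mice had 1 nostril plugged for 6 weeks, and trained mice learned to tell odorants apart in a go/no-go task over 6 weeks. Per the study's methods the trained mice were deprived of water and rewarded with it, which is not stated for the other groups. The study's text names naive mice as a group, but also says that the plugged side was the deprived sample and the open side its control. The labels name no side, so the controls are described here only as labelled. All groups shared the strain and age. Per the study's supplement each library pooled 3 mice of 1 sex, replicate 1 being male and replicate 2 female, so that the spread between the libraries of a group includes the difference between sexes.

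Olfactory sensory neurons detect odorants with receptors on their cilia in the nasal epithelium, and their axons end in the glomeruli of the olfactory bulb. Receptor binding raises cyclic AMP and opens a calcium-permeable channel. S100a5 encodes a small calcium-binding protein of the S100 family with EF-hand motifs, and is known as a gene whose transcript level in these neurons follows odor-driven activity. The cell bodies lie outside the bulb, and the labels state that pieces of adjoining epithelium were dissociated with it.

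In the RefSeq annotation of GRCm38.p6 (mm10), the build the authors used, S100a5 lies at chr3:90606480-90611784 on the plus strand between S100a4, which ends 434 bases before it, and S100a6, which starts 1109 bases after it, and 0 annotated genes overlap it. The 250 bases before its annotated transcript start, at chr3:90608272-90608521 on the plus strand, are shown because the gene is known for its response to activity. The start is the one given in the RefSeq table of promoters. The annotated gene begins upstream of it, so the window lies inside the gene and other starts were not examined. Capitals mark the single CCAAT box (here as its reverse complement, ATTGG) and the single E-box (CANNTG).

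S100a5: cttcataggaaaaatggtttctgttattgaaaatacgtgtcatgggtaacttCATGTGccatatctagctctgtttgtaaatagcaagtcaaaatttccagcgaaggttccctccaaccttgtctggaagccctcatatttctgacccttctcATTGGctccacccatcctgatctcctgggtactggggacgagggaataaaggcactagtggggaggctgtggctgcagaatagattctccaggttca

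On both strands, the cyclic AMP response element (TGACGTCA), the shorter TGACG, the AP-1 motif (TGANTCA), the EBF motif (CCCNNGGG), the homeodomain motif (TAATTA) and the TATA box (TATAAA) had 0 matches in this window. The serum response element, searched in a loose form that fixes only its outer bases, had 2 matches, 153 and 133 bases before the start, and was found in 67.1% of windows. Among the 32851 windows of the same length before annotated starts, 1.55% held the full cyclic AMP element, 17.8% the shorter form, 6.75% the AP-1 motif, 11.8% the EBF motif, 4.84% the homeodomain motif and 12.4% the TATA box. The CCAAT box was in 33.8% of the windows and the E-box in 66.2%. These matches describe letters only and say nothing of binding.

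The labels of the cells were checked before the results. The annotation divided 51426 cells into 38 clusters over the whole bulb and, for neurons, into 18 clusters. The 1200 n01-OSNs cells lay mostly in the whole-bulb cluster N5 (917 cells), with 249 in N6 and 34 in 8 other clusters. Of 8 sensory neuron markers, 6 were highest in N5, among them Omp, which encodes olfactory marker protein, and Gng13, a G protein gamma subunit of the transduction pathway. Gng13 alone gave 93.3% of the marker UMIs in n01-OSNs. Depth ranged from 11841160 to 17065083 UMIs (unique molecular identifiers, each a counted transcript molecule) per library. Median depth in n01-OSNs was 697 to 977.5 UMIs per cell, and the median mitochondrial share was 36.9 to 41.8%, against 9.18 to 13.9% in all other annotated cells. In n01-OSNs this share was 38.2 and 39.4% in control, 40.5 and 41.8% in occluded and 36.9 and 39.3% in trained libraries. In the other cells it was 11.34 and 11.33%, 9.43 and 9.18%, and 13.9 and 10.2%. Among annotated cells, 2956 carried a barcode that also occurred in another library, 70 of them in n01-OSNs. The start of the cell names and the library column disagreed for the trained libraries, which were exchanged between replicates 1 and 2. The library column was used. Under it trained replicates 1 and 2 held 10570 and 6705 cells, the counts in the study's supplement, and Xist and Ddx3y counts matched the sexes given there. Both trained libraries belong to 1 group.

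S100a5 was the 8th most abundant transcript of n01-OSNs in both control and both trained libraries. Its level in control replicates 1 and 2 was 28031 and 25567 CPM (UMIs of the gene scaled to a common total per library). Occluded replicates 1 and 2 had 15027 and 10026 CPM, and trained replicates 1 and 2 had 19259 and 25037 CPM. Every trained and control library was above both occluded ones, where S100a5 ranked 10th and 11th. The mean over the 6 libraries was 20491 ± 6988 CPM (SD, n = 6), or 34503 CPM with mitochondrial genes left out of the total. Pooled over the libraries, S100a5 made up 2.15% of all UMIs in the cluster. These 1200 cells, 2.33% of the annotated cells, held 1.38% of all UMIs and 34.0% of the 76171 S100a5 UMIs.

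**Figure D1:**
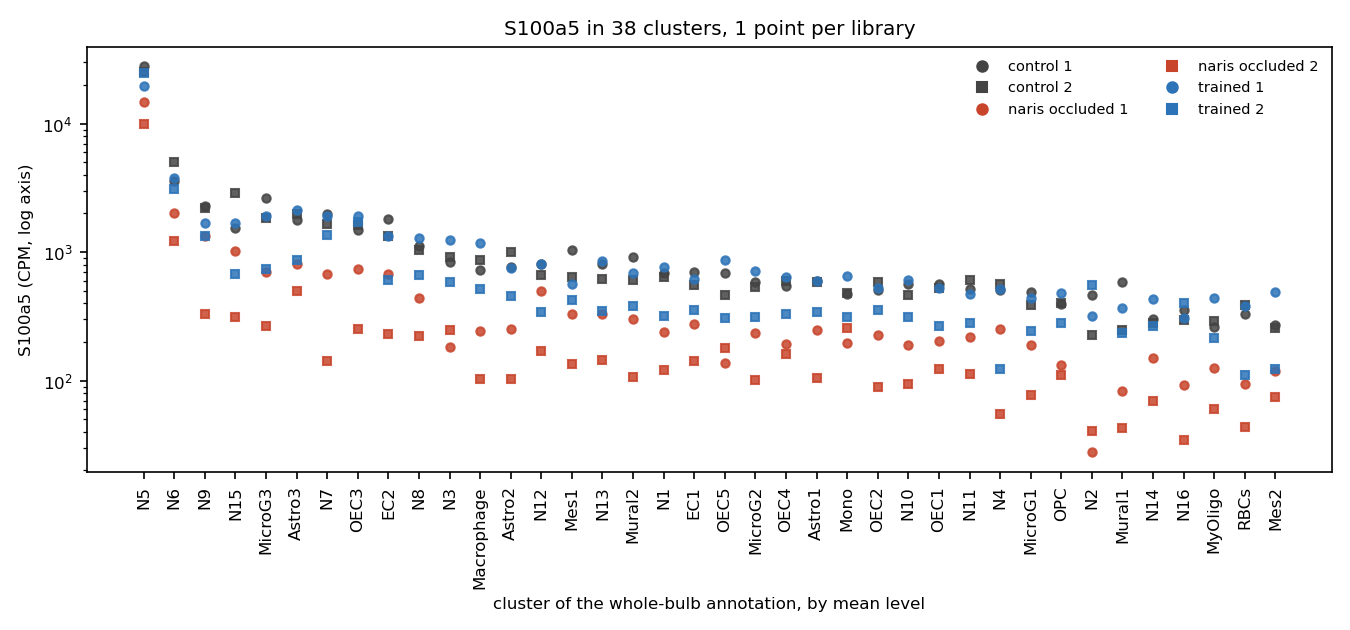
S100a5 level (CPM, log axis) in each of the 38 whole-bulb clusters, ordered by the mean; each point is 1 library, coloured by group, circles replicate 1 and squares replicate 2. N5 stands above N6 and the rest, and both occluded libraries lie below both control libraries in every cluster shown.

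N5, the whole-bulb cluster of the same neurons, held 20370 ± 6999 CPM (SD, n = 6). N6 came next with 3109 ± 1332 CPM, and its cells outside n01-OSNs held 2911 and 3389 CPM in the control libraries. N9 followed with 1527 ± 716 CPM and N15 with 1353 ± 910 CPM. Of the 37 steps between neighbouring clusters in this order, 2 exceeded 1 SD, that from N5 to N6 and that from N6 to N9. In the annotation of neurons, n13-AstrocyteLike was second with 2393 ± 1142 CPM, and only the step from n01-OSNs to it exceeded 1 SD among 17 steps. This SD includes the differences between the 3 groups, and within libraries n13-AstrocyteLike was above the next cluster, n06-Transition, in all 6.

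Outside n01-OSNs, 46.5% of annotated cells carried at least 1 S100a5 UMI. Droplets also capture free RNA from broken cells, and cells not known to use the gene give the level of this background. Red blood cells carried a UMI in 46.1% of cells at a median depth of 3894 UMIs, and myelinating oligodendrocytes in 40.6% at 3322 UMIs. Across the 36 clusters other than N5 and N6 the share ran from 38.5 to 53.0%, which includes those cells. Counts outside n01-OSNs and N5 are called background or free RNA below, but whether these cells express the gene was not tested. The mean CPM of these clusters spanned 6.88-fold, from 222 in Mes2 to 1527 in N9. Their S100a5 UMIs per cell spanned only 1.85-fold, from 0.725 in N3 to 1.34 in N15, while median depth spanned 5.86-fold, from 687 to 4028.5 UMIs per cell. After each cell was thinned to 500 UMIs, the share was 9.59% in red blood cells and 41.9% in N7, the shallowest of the 36, against 90.7% in n01-OSNs.

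**Figure D2:**
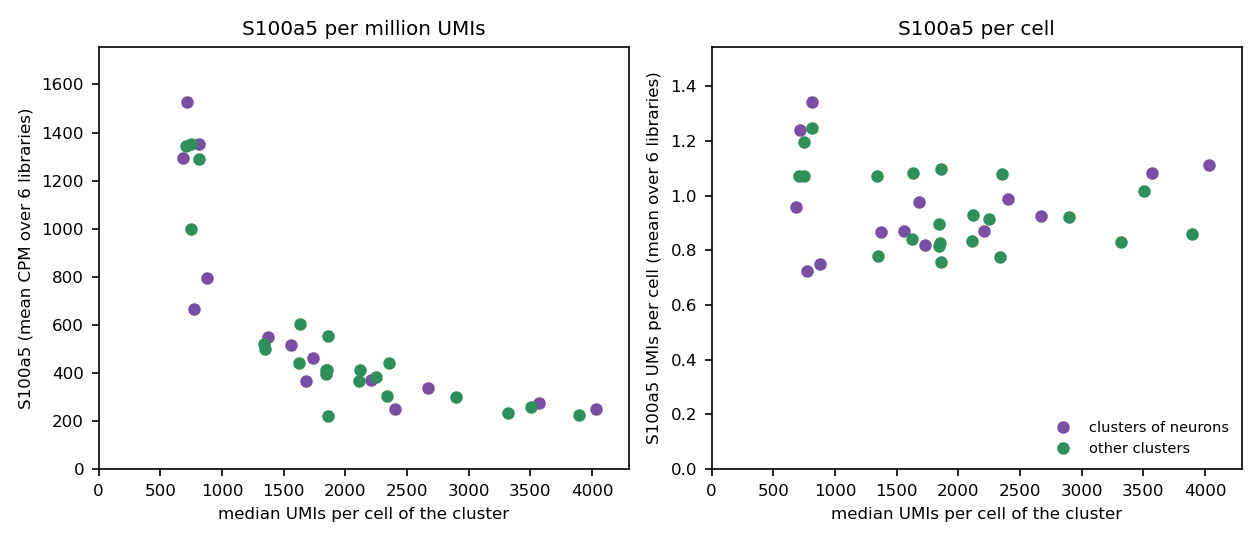
Mean S100a5 CPM (left) and mean S100a5 UMIs per cell (right) against the median UMIs per cell, for the 36 whole-bulb clusters other than N5 and N6; each point is 1 cluster, both vertical axes start at 0. CPM is highest in the shallowest clusters, whereas UMIs per cell stay between 0.725 and 1.34 at all depths.

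Within a library, the ratio of S100a5 to the summed sensory neuron markers was near that of n01-OSNs in the other cells too. All other annotated cells here are the 50054 cells outside both n01-OSNs and N5. They include the N6 cells outside n01-OSNs, 627 and 403 in control, 231 and 199 in occluded and 1161 and 198 in trained libraries. In control replicates 1 and 2, n01-OSNs held 1.501 and 1.27 S100a5 UMIs per marker UMI and the other cells 1.36 and 1.44. Occluded n01-OSNs held 0.735 and 0.384 and the other cells 0.667 and 0.326. Trained n01-OSNs held 1.33 and 1.40 and the other cells 1.17 and 1.06. In both sets of cells the occluded libraries were the lowest. In single clusters other than N5 the ratio ran from 0.843 to 1.74 over the control libraries, 0.190 to 0.711 over the occluded and 0.787 to 1.83 over the trained libraries. Gng13 dominates these markers. Per Omp UMI, S100a5 was lower in the other cells than in n01-OSNs in all 6 libraries, least so in control replicate 2 (32.9 against 33.6) and most so in trained replicate 2 (21.8 against 36.0).

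S100a5 varied widely among n01-OSNs cells. A UMI of it was found in 94.3% of the 1200 cells (95% Wilson interval 92.9 to 95.5%, counting error only), and the largest cell held 380. This interval pools all libraries, whose own shares ran from 75.2% in occluded replicate 2 to 98.1% in control replicate 2. The middle 80% of cells gave it between 0.158 and 4.44% of their UMIs. The median control cell gave S100a5 2.09 and 1.85% of its UMIs, the median trained cell 1.48 and 1.72%, and the median occluded cell 1.04 and 0.331%. Cells that gave it over 4% made up 21.1 and 19.4% of control, 7.64 and 13.7% of trained and 6.45 and 2.65% of occluded cells.

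**Figure D3:**
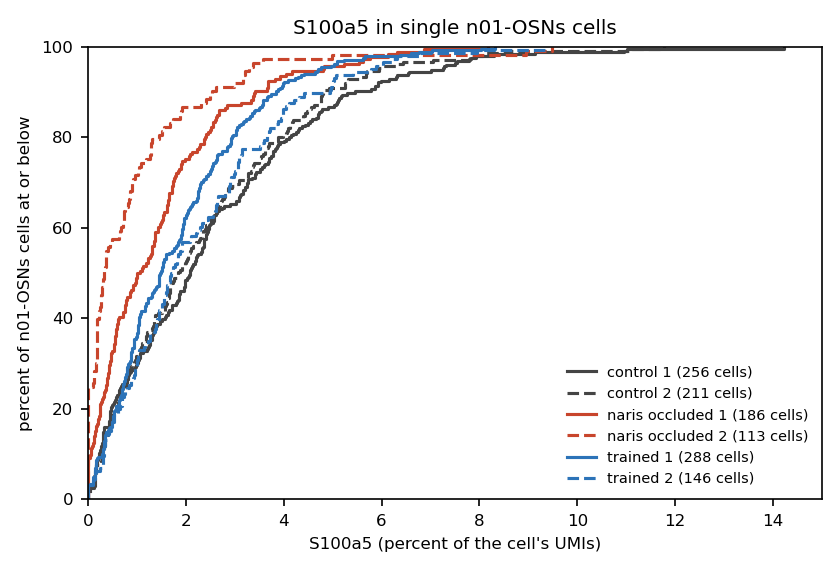
Cumulative percent of n01-OSNs cells against the percent of each cell's UMIs that were S100a5, 1 line per library, solid for replicate 1 and dashed for replicate 2. The occluded lines lie to the left, with medians of 1.04 and 0.331%, against 1.85 and 2.09% in the control libraries.

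Naris occlusion asked what a lack of odor does to this transcript. In n01-OSNs S100a5 was 2.14-fold lower, with 26799 ± 1742 CPM in control and 12526 ± 3537 CPM in occluded libraries (SD, n = 2 each), and the groups did not overlap. Groups in that order without overlap were found for 22.6% of the genes tested, so the ordering alone carries little. In the fit over all 1741 genes with enough counts, S100a5 fell by 1.01 on the log2 scale (SE 0.19, edgeR quasi-likelihood test, adjusted p = 0.00412), the smallest p of all genes. Here 5 genes (0.287%) passed, 86 had an unadjusted p under 0.05, and DESeq2 called 1. Since the gene was selected for its level in these cells and taken up with its changes known, this p is no independent evidence. The same holds for all later p-values of S100a5, in any comparison and set of cells. Without control replicate 1, control replicate 2 or occluded replicate 2 in turn, the adjusted p was 0.182, 0.0529 and 0.881, with log2 changes of -1.002, -1.05 and -0.76. The lone library left in a group was then assumed to vary like the others. DESeq2 gave an adjusted p of 0.0269. These p-values measure the spread between 2 pooled libraries per group.

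Omp and Gng13, the reference transcripts of these neurons, had differences of smaller size with no call. Omp was at 780 and 761 CPM in control and 820 and 703 CPM in occluded n01-OSNs, a log2 change of 0.08 ± 0.22 (SE, edgeR adjusted p = 0.985) after TMM scaling, whereas its mean CPM was 1.01-fold lower. Gng13 was at 17203 and 18839 CPM in control and 18987 and 24941 CPM in occluded n01-OSNs, with a log2 change of 0.36 ± 0.18 (SE, edgeR adjusted p = 0.929). S100a5 UMIs per Omp UMI were accordingly 35.9 and 33.6 in control, 18.3 and 14.3 in occluded and 32.4 and 36.0 in trained n01-OSNs.

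Cells with no S100a5 UMI were more frequent after occlusion. They made up 17 of 186 n01-OSNs cells in occluded replicate 1 and 28 of 113 in replicate 2, against 6 of 256 and 4 of 211 in the control libraries. A Gng13 UMI was present in 16 of those 17 and 27 of those 28 cells. With each cell thinned to 500 UMIs, an S100a5 UMI was found in 94.5 and 95.3% of control cells and in 85.5 and 69.9% of occluded cells. Free RNA can also give a cell such a UMI, and this background differed between the groups. Without thinning, all other annotated cells carried an S100a5 UMI in 61.2 and 59.3% of control cells. In the occluded libraries the share was 34.4 and 15.1%. The part of this background in the counts of n01-OSNs cells without a UMI was not tested. The share of n01-OSNs among annotated cells was 2.55 and 1.23% in occluded and 2.56 and 2.74% in control libraries.

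**Figure D4:**
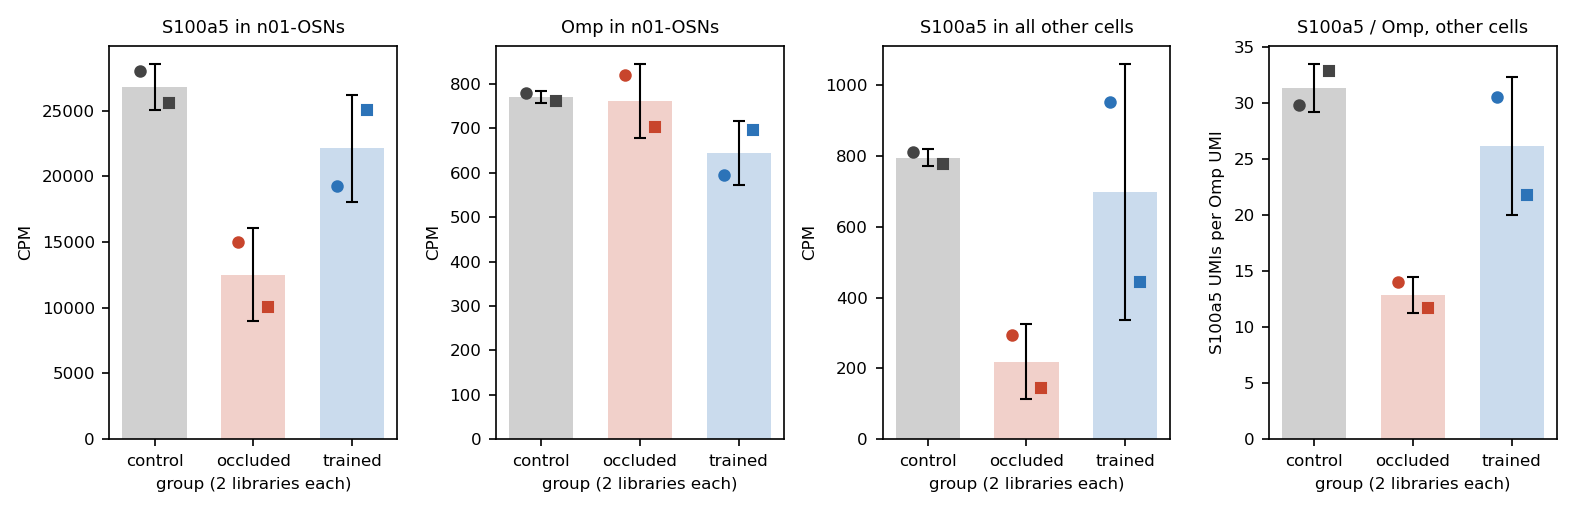
From left to right, S100a5 and Omp in n01-OSNs (CPM), S100a5 in all other annotated cells (CPM), and S100a5 UMIs per Omp UMI in those cells; bars are group means, error bars SD of 2 libraries, circles replicate 1 and squares replicate 2. S100a5 is lowest in the occluded group in each panel that shows it, while Omp in n01-OSNs spans 594 to 820 CPM over all libraries.

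Training addressed odor exposure with learning, in mice that were also deprived of water. S100a5 in n01-OSNs was 22148 ± 4086 CPM in trained libraries (SD, n = 2), and both lay below both controls, an order found for 14.1% of genes. The log2 change against control was -0.31 ± 0.19 (SE, edgeR adjusted p = 0.938). In this comparison 0 of 1741 genes (0%) passed in edgeR, 84 had an unadjusted p under 0.05, and DESeq2 also called 0, with 11 unadjusted. Omp differed in the same direction by -0.31 ± 0.22, and Gng13 by -0.29 ± 0.18 (SE). S100a5 UMIs per Omp UMI in n01-OSNs had means of 34.8 ± 1.6 in control and 34.2 ± 2.5 in trained libraries (SD, n = 2 each). In CPM, trained minus control S100a5 was -0.54 on the log2 scale in replicate 1 and -0.03 in replicate 2.

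Trained against occluded n01-OSNs, S100a5 was 1.77-fold higher by group means, without overlap, as were 24.9% of genes in that direction. The log2 difference was 0.70 ± 0.19 (SE), and it did not pass (edgeR adjusted p = 0.105), where 1 gene of 1741 did (0.0574%). It passed without the TMM factors (0.81, adjusted p = 0.0135) and in cells with at least 1000 UMIs (0.84, 8.04e-07). It also passed in all N5 cells (0.80, 0.042) and with the sensory neuron markers as library size (1.28, 0.0102). A fit with 1 library left out was the other of the 5 alternatives, of 16, that passed. These p-values too are no independent evidence, since the gene was taken up with its changes known. The log2 difference was 0.99 without trained replicate 1, 0.40 without trained replicate 2 and 0.47 without occluded replicate 2. The 1 gene that passed in the fit as designed was Sult1d1, a sulfotransferase, named after its value was seen. It was at 78.0 and 94.5 CPM in control, 124 and 95.9 CPM in occluded and 24.7 and 27.0 CPM in trained n01-OSNs. In this comparison 0 genes were called by DESeq2 or with libraries taken from the start of the cell names and the block, and 0 were called lower without TMM factors, in N5 cells or with the sensory neuron markers as library size.

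Counts of S100a5 in the other cells also differed between groups. They held 812 and 778 CPM in control replicates 1 and 2, 294 and 144 CPM after occlusion, and 954 and 443 CPM after training. By group means the occluded level was 3.63-fold lower than control, without overlap, as for 14.4% of the genes tested. In S100a5 UMIs per cell it was 3.19-fold lower. Trained over occluded was 3.19-fold in CPM and 2.54-fold in S100a5 UMIs per cell. From these S100a5 sums alone, fewer broken sensory neurons and less S100a5 per neuron cannot be told apart. In the same cells Omp was 1.53-fold and the summed sensory neuron markers 1.29-fold lower after occlusion, and S100a5 UMIs per marker UMI had means of 1.40 ± 0.06 in control and 0.496 ± 0.241 in occluded libraries (SD, n = 2 each). Both occluded libraries were below both controls in 37 of 37 other whole-bulb clusters and in 14 of 17 other clusters of neurons. The exceptions were n05-PGC-2, n15-M/TC-1 and n16-M/TC-2. Clusters of a library share its free RNA and are not replicates.

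In the fit over 15626 genes of the other cells, the log2 change with occlusion was -1.89 ± 0.38 (SE, edgeR adjusted p = 0.524), where 1 gene passed (0.00640%), the natriuretic peptide precursor Nppa. With the replicate number, and so sex, as a block, 12 genes passed and S100a5 was among them at -2.01 ± 0.21 (adjusted p = 0.00771). Trained against control, the log2 change was -0.19 ± 0.37 (SE, edgeR adjusted p = 0.915). Here 1 gene passed (0.00640%), Crh, which encodes corticotropin-releasing hormone, or 5 with the block. Nppa and Crh are named after their values were seen. For S100a5 CPM, 1 trained library lay above and the other below both controls. In S100a5 UMIs per cell, trained replicate 1 (1.389) lay between the controls (1.404 and 1.33) and trained replicate 2 (0.790) below both. Without trained replicate 2 the log2 change turned to 0.28. Trained against occluded, S100a5 was higher by 1.71 ± 0.38 (SE, edgeR adjusted p = 0.0951), without overlap as for 21.0% of genes, where 59 genes passed (0.378%). With the block 457 passed, S100a5 with them at 1.69 ± 0.21 (adjusted p = 0.00674). It also passed with no filter on low counts (1.71, adjusted p = 0.033) and without trained replicate 2 (2.18, adjusted p = 0.0218). Without trained replicate 1 it was 1.004 (adjusted p = 0.382), and without occluded replicate 2 it was 1.28 (adjusted p = 0.419).

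Measured against other sensory neuron transcripts in the same free RNA, the difference with occlusion was smaller. Omp in the other cells was 27.2 and 23.7 CPM in control and 21.0 and 12.2 CPM in occluded libraries. S100a5 UMIs per Omp UMI were 29.8 and 32.9 in control, 14.03 and 11.7 in occluded and 30.6 and 21.8 in trained libraries. The mean ratio was 2.43-fold lower after occlusion, and the exact permutation test of its log2 values (difference -1.29) gave p = 0.333 (two-sided, 2 against 2 libraries), the smallest that this design allows. The corresponding fold of the ratio in n01-OSNs was 2.13. The log2 change with occlusion in n01-OSNs minus that in the other cells was 0.78 ± 0.39 (SE, edgeR, unadjusted p = 0.0417, adjusted p = 1), and for training it was -0.09 ± 0.39 (adjusted p = 1). The latter turned to 0.71 without trained replicate 1 and was -0.90 without trained replicate 2 (adjusted p = 1 in both).

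The genes whose levels were most like S100a5 over the 38 clusters, by Pearson's r of mean log2(CPM + 1), were Gng13 (0.995), Acbd7 (0.948), 1700012B09Rik (0.946), Stoml3 (0.918), a stomatin-like protein of the sensory cilia, and mt-Nd5 (0.903), with Omp next (0.902). The clusters share libraries, depth and free RNA. Their mean levels in n01-OSNs were 18375 ± 3771 CPM for Gng13, 760 ± 140 for Acbd7, 438 ± 59 for 1700012B09Rik and 417 ± 64 for Stoml3 (SD, n = 6). UMI counts from transcript ends are not divided by length. With occlusion these genes had log2 changes of 0.36 ± 0.18 (Gng13), 0.32 ± 0.22 (Acbd7), 0.15 ± 0.25 (1700012B09Rik), -0.03 ± 0.25 (Stoml3) and 0.45 ± 0.18 (mt-Nd5), and 0 of these 5 passed in edgeR.

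Gene lists around S100a5 placed its difference beside related genes in n01-OSNs, where the median over all genes tested was -0.00 on the log2 scale. In each list described here and in every n01-OSNs comparison, 0 genes passed in edgeR, and DESeq2 called S100a5 alone, with occlusion. Of 18 olfactory transduction genes 8 had enough counts to be tested, with a median log2 change of 0.26 with occlusion and 1 unadjusted p under 0.05, that of Gnb1, a G protein beta subunit (0.58 ± 0.20, SE). Of 14 activity genes 3 were tested, with a median of -0.70 and 1 unadjusted p under 0.05. This was Pcp4l1, which had 464 and 458 CPM in control, 307 and 245 CPM in occluded and 342 and 358 CPM in trained n01-OSNs, and a log2 change of -0.62 ± 0.26 (SE, edgeR adjusted p = 0.921). In the other cells Pcp4l1 had 267 and 259 CPM in control and 208 and 212 CPM in occluded libraries. Pcp4l1, Epha5 and Pcdh10 had the most n01-OSNs UMIs of this list, but were highest in other clusters of neurons, N10, N8 and N8. Granule and periglomerular cell markers in n01-OSNs had a median of -0.61 with occlusion (5 tested). The part of RNA carried over from other neurons in these changes was not tested. The immediate early gene Fos had 22 UMIs in all n01-OSNs cells and Egr1 31, so that changes in them were not detectable at this depth. Of 8 genes of immature sensory neurons 6 were tested, with a median of -0.23. The 1 unadjusted p under 0.05 belonged to Gng8, a G protein gamma subunit (-1.38 ± 0.53, SE, edgeR adjusted p = 0.921). Gng8 had 65 UMIs in all n01-OSNs cells. It was at 108 and 56.7 CPM in control and 16.6 and 63.9 CPM in occluded libraries, so the groups overlapped. Only Gng8 of the 8 genes was highest in N5.

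S100a5 stood apart from its own family in level. The next S100 genes in n01-OSNs were S100b at 306 ± 48 CPM, S100a1 at 158 ± 27, S100a13 at 144 ± 33, S100a6 at 89.0 ± 45.0 and S100a16 at 83.2 ± 14.1 (SD, n = 6), and all 5 were lower there than in the other cells. Of 15 family members other than S100a5, 6 were tested, with a median log2 change of -0.16 with occlusion. The genomic neighbour S100a6 had 156 and 85.1 CPM in control and 70.4 and 21.3 CPM in occluded n01-OSNs, a log2 change of -1.06 ± 0.41 (SE, edgeR adjusted p = 0.921). It had 117 UMIs in all n01-OSNs cells and was highest in OEC1 (736 CPM). In the other cells S100a6 was at 192 and 181 CPM in control and, higher, 203 and 209 CPM in occluded libraries. The part of RNA carried over from other cells in its n01-OSNs counts was not tested.

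**Figure D5:**
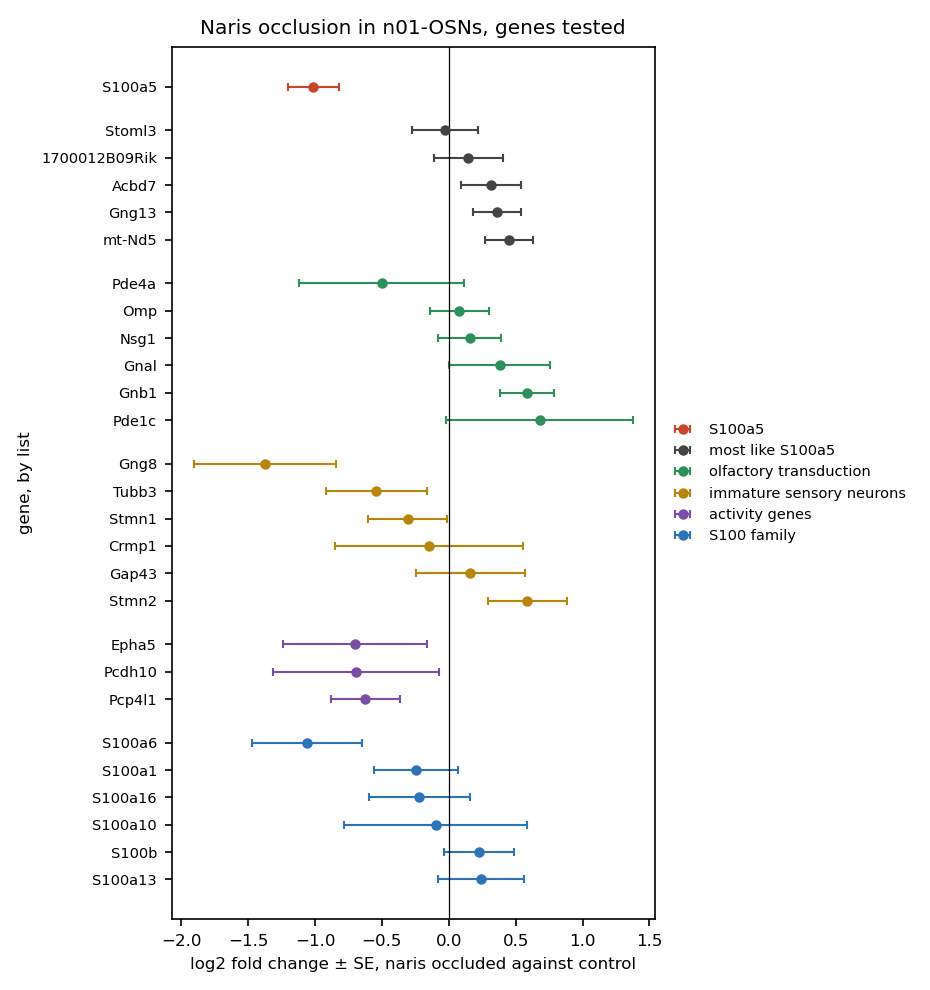
Log2 fold change with naris occlusion in n01-OSNs (horizontal axis, points with SE bars) for S100a5, the 5 genes most like it, and the members of 4 gene lists that had enough counts to be tested, coloured by list. S100a5 at -1.01 carries the only adjusted p under 0.05 among the genes drawn.

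Markers of other cell types in n01-OSNs were followed by group. The list members named here by an unadjusted p or a low count were picked after their values were seen. The summed ensheathing cell markers ranged from 2528 to 3243 CPM in control, 2469 to 2482 in occluded and 1825 to 2309 in trained libraries. The summed astrocyte markers ran from 789 to 836 CPM in control, 928 to 959 in occluded and 845 to 965 in trained libraries. The granule and periglomerular cell markers ran from 880 to 902 in control, 458 to 692 in occluded and 750.3 to 1167 in trained libraries. Mitral and tufted cell markers gave 146 to 204 CPM in control, 95.9 to 104 in occluded and 74.4 to 119.6 in trained libraries. Microglial markers were at 118 to 130 in control, 58.0 to 139 in occluded and, above both, 177 to 216 in trained libraries, and blood markers at 66.2 to 245, 170 to 199 and 66.0 to 74.4. Of 14 markers of epithelial supporting and basal cells 6 were in the table, their sum was at most 16.5 CPM in any library, and Cyp2g1, Cyp2a5 and Krt18 were at 0. That highest sum, in trained replicate 1, was Ermn alone. Over the whole bulb Ermn was highest in myelinating oligodendrocytes (1799 CPM) and Cbr2 in macrophages (583 CPM), so these genes of the list do not mark epithelium here. The part of these markers in the S100a5 difference was not tested. S100a5 was at 31355 and 26668 CPM in control and 15840 and 10519 CPM in occluded libraries when n01-OSNs cells within N5 alone were taken.

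The other genes that passed with occlusion in n01-OSNs, named after their values were seen, were all higher. They were Kif5b, a kinesin-1 heavy chain (log2 change 0.95 ± 0.21), Plekhm2, an adaptor between lysosomes and kinesin-1 (1.74 ± 0.36), Mcf2l (1.09 ± 0.23) and 1700097N02Rik (2.12 ± 0.46, SE each, edgeR adjusted p from 0.0119 to 0.0199). In place of these 4, 0 genes were called higher by DESeq2, in N5 cells, with the sensory neuron markers as library size, and without control replicate 1, control replicate 2 or occluded replicate 2. The number was 1 with no filter on low counts, 1 with libraries taken from the start of the cell names and the block, 2 without TMM factors and 2 in cells with at least 1000 UMIs. Kif5b was at 795 and 1106 CPM in control, 1810 and 1641 CPM in occluded and 1241 and 1629 CPM in trained n01-OSNs, so that both trained libraries too lay above both controls. Mcf2l was at 483 and 586 CPM in control, 882 and 1310 CPM in occluded and 577 and 642 CPM in trained n01-OSNs. In the other cells Mcf2l was between 68.9 and 99.0 CPM in all libraries.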

How the data were processed

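Cells were dissociated from olfactory bulbs and profiled in 6 libraries made with version 2 of the 10x Chromium kit for transcript 3' ends. The deposited table holds raw UMI counts for 18560 genes and 52549 barcodes, made by the authors with Cell Ranger 2.0.0 on mm10 and filtered in Seurat 2.2.1 to cells with at least 200 genes (201 was the lowest). The mitochondrial fraction of each cell is the authors' deposited value, printed here as a percent. Libraries and clusters came from the deposited annotation, which leaves 1123 barcodes without a cluster. No doublet caller was run here. Counts were summed per library over n01-OSNs, and over the cells outside n01-OSNs and N5, and tested with edgeR 4.0.16 (TMM, filterByExpr, quasi-likelihood F test, group only, all 6 libraries) in R 4.3.3, with Benjamini-Hochberg adjustment over all genes tested at a threshold of 0.05. SE is the log2 change divided by the square root of F. A further fit of both sums held each library as a block. DESeq2 1.42.0, other scalings, filters and cell sets, and each library left out were alternatives. The fits were tested on simulated data. For shares, cells were also thinned to 500 UMIs.

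Deviations of same-numbered libraries from their group means correlated across genes with r of 0.287 to 0.406 in the other cells and 0.0589 to 0.111 in n01-OSNs. The study's supplement gives the sex of each pool, and Xist and Ddx3y counts matched it in 6 of 6 libraries. Since the number thus marks sex, blocked values are printed where they change a call. The gene and the lists were chosen with earlier results of these data known. Genes named are S100a5, Omp, the 5 most like it, list members that passed, and up to 5 S100 genes by level, and others are marked as named after their values were seen. Promoter sequence and positions came from RefSeq.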

Additional observations from a re-analysis of the deposited data

Results flagged for a closer look

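Against control, S100a5 CPM in the other annotated cells moved in opposite directions in the pools of either sex after training. In replicate 1 (male) it was 0.23 higher on the log2 scale, and in replicate 2 (female) -0.81. Its ratio to Omp in the same cells also had opposite signs, 0.0341 in replicate 1 and -0.59 in replicate 2, whereas the ratio to the summed sensory neuron markers was lower in both (-0.21 and -0.45). S100a5 UMIs per cell were lower in both trained pools, at 1.389 against 1.404 in control replicate 1 and 0.790 against 1.33 in control replicate 2. With 1 library per sex and group, these differences between the pools were not tested.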

How the results depend on the processing

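The log2 change of S100a5 with occlusion in n01-OSNs kept its sign and passed under 13 of 16 alternatives. The 3 where it did not pass each left out a control or occluded library. The alternatives share most cells and libraries, and the gene was taken up with this change known, so the count is no independent evidence. With trained libraries against control it did not pass under any of 16. Leaving out 1 library at a time gave -1.34 to -0.76 with occlusion, -0.63 to -0.01 for trained against control and 0.40 to 1.04 for trained against occluded. The last passed under 5 of 16 alternatives, among them a fit with a library left out. The others had no TMM factors (0.81), cells with at least 1000 UMIs (0.84), N5 cells (0.80) and the markers as library size (1.28). In the other cells the ranges were -2.50 to -1.47, -0.89 to 0.28 and 1.004 to 2.31, and the last comparison passed with no filter on low counts (1.71) and without trained replicate 2 (2.18). The training change in n01-OSNs minus that in the other cells ranged from -0.90 to 0.71. The mean level was 34503 CPM with mitochondrial genes left out. The causes were not tested.

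Counts of genes called in n01-OSNs for occluded against control, trained against control and trained against occluded were 5, 0 and 1. They were 1, 0 and 0 with DESeq2, 2, 1 and 2 with no filter, and 3, 3 and 4 in cells with at least 1000 UMIs. Leaving out a library gave 0 to 7, 0 to 9 and 2 to 37. The occlusion count was 3 with no TMM factors, 1 in N5 and 1 with the markers as library size, where trained against occluded called 27. Markers as library size moved the median of all genes by -0.30, 0.33 and 0.63. In the other cells the counts were 1, 1 and 59, against 11, 36 and 252 with DESeq2 and 6, 2 and 191 with no filter. Leaving out a library gave 0 to 1, 0 to 17 and 0 to 414. In cells with at least 1000 UMIs the last 2 counts were 0 and 1, and without TMM factors training called 0.

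With the replicate block, S100a5 in the other cells changed by -2.01 with occlusion and was 1.69 higher in trained than in occluded libraries, and both passed. The block changed no other call of S100a5. It called 7 genes in n01-OSNs for trained against occluded, and 12, 5 and 457 in the other cells. With libraries taken from the start of the cell names, the block called 2 with occlusion and 0 for trained against occluded in n01-OSNs. The paired ratio to Omp in the other cells changed by -1.29 with occlusion (exact permutation p = 0.5). That is the smallest p that 2 pairs allow, so it draws no distinction.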

Other observations

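Barcodes without a cluster, 111 to 262 per library, held S100a5 at 719 and 1028 CPM in the control, 591 and 109 CPM in the occluded and 655 and 324 CPM in the trained libraries.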
